A study of Mus musculus with 23 samples.

Results

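Gene expression was compared between cultured endothelial cells of the mouse aorta, a primary cell that lines the vessel lumen, kept in plasma of Stabilin double knockout mice and the same kind of cells kept in plasma of ApoE-KO mice. ApoE-Stab1-KO donors lacked apolipoprotein E and Stabilin-1 (6 arrays), ApoE-Stab2-KO donors lacked apolipoprotein E and Stabilin-2 (6 arrays), and ApoE-KO donors lacked apolipoprotein E alone (5 arrays). Loss of apolipoprotein E and 8 weeks of Western diet were thus shared by all 3 donor groups. Arrays were chosen by the plasma genotype in the labels, which gave 17 of the 23 arrays of the series, and the 6 Wildtype arrays, with no diet given for their donors, served as a second point of comparison and entered the fit's shared estimate of the spread. The difference was taken as the mean of both double knockout group means minus the ApoE-KO mean, over 24704 genes. Confluent cells had received medium with 10% plasma in place of serum for 48 h. Only the plasma donors carried these genotypes, so the Stab1, Stab2 and Apoe levels of the cells do not check the labels. The labels name the strain C57BL/6J on every sample, and do not state if replicates stem from different donors, pooled plasma or different wells, so p-values measure the spread between arrays.

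Cells make cholesterol in a chain of steps that begins with HMG-CoA synthase, passes through mevalonate and squalene, and ends with sterol reductases such as DHCR7. The transcription factor SREBP-2, the product of Srebf2, is held in the endoplasmic reticulum by INSIG proteins when membrane cholesterol is plentiful, and otherwise moves to the nucleus and turns on this chain and the LDL receptor. Stabilin-1 and Stabilin-2 are scavenger receptors of sinusoidal endothelium, known for clearing hyaluronan, modified lipoproteins and circulating matrix proteins, among them TGFBI, reelin and periostin.

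The promoters of the 3 genes with the smallest p are shown because all 3 belong to the cholesterol synthesis chain. They are RefSeq sequences on GRCm38.p6 and cover the 250 bases before an annotated start, Hmgcs1 at chr13:119690101-119690350 on the plus strand, Dhcr7 at chr7:143829964-143830213 on the plus strand and Msmo1 at chr8:64733579-64733828 on the minus strand. Capitals mark matches on either strand to the SRE-1 letters TCACNCCAC, a sequence SREBP is known to bind, and to CCAAT, the letters known for the factor NF-Y, which a match on the other strand shows as ATTGG.
Hmgcs1: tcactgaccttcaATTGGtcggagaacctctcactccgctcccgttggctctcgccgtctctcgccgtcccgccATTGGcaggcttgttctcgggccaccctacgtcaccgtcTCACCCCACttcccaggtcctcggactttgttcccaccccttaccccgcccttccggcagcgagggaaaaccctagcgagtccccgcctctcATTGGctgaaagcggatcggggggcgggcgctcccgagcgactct
Dhcr7: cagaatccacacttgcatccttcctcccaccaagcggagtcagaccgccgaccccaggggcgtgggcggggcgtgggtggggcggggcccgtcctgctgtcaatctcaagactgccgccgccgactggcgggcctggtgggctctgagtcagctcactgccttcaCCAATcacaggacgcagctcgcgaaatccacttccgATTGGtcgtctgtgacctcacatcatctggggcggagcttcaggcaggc
Msmo1: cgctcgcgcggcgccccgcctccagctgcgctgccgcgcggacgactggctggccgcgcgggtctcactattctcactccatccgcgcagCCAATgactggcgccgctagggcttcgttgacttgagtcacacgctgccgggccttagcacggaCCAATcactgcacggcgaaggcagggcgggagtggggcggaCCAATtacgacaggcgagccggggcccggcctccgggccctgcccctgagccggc
The Hmgcs1 promoter held 1 SRE-1 match, starting 137 bases before the start, and 3 CCAAT matches. Msmo1 held 3 CCAAT matches and no SRE-1 match. Dhcr7 has 3 annotated starts, and the one shown was chosen because it alone held CCAAT matches. Over the cholesterol synthesis genes, 14 of the 17 measured had a promoter in the table, with 17 promoters in all, of which 1 held SRE-1 and 14 (82.4%) held CCAAT. Among all 32851 promoters the shares were 1.05% for SRE-1 and 33.8% for CCAAT. A match is a description of letters, and no binding was measured.

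The values were deposited as log2 RMA expression and ran from 2.52 to 13.9, with a correlation of 0.992 to 0.997 between any 2 arrays, and the number of arrays limits the precision. RMA sets each gene relative to the rest of its array, and fewer cells of a type and less RNA per cell cannot be told apart. ApoE-KO replicate 1 was stored with finer decimals, 4.21% of its values lying on the binary grid that held 100% in each other array. All 8 endothelial markers lay high, Cdh5 and Pecam1 at the 99.9th percentile of all genes and Tek, the lowest, at 89.3. Markers of other cells lay below the median level in 5 of 8 for smooth muscle, 6 of 8 for fibroblasts, 5 of 7 for macrophages, 4 of 6 for blood cells and 5 of 7 for liver, with Smtn (97.0) and Cd68 (99.0) the high ones. Of the 7 lymphatic markers measured, 3 lay below the median level. Lyve1, at the 99.9th percentile, and Flt4 were the high ones, while Prox1, the factor that defines lymphatic endothelium, lay at 22.4. No gene of these 7 marker lists passed the test between double knockout and ApoE-KO plasma.

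The cholesterol synthesis enzymes Hmgcs1 and Dhcr7, were lower in cells with Stabilin double knockout plasma than with ApoE-KO plasma, and no gene passed as higher. These 2 genes were 0.0081% of those tested with limma at a Benjamini-Hochberg adjusted p under 0.05. Without adjustment, 1428 genes (5.78%) had a p under 0.05, 683 higher (2.76%) and 745 lower (3.02%), and 1235 genes would be that share of 0.05. The median difference over all genes was -0.0015 on the log2 scale, 50.9% of genes lay below 0, and the median standard error was 0.06. Differences were small throughout, with 4 genes past 1.5-fold and none of those called.

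**Figure D1:**
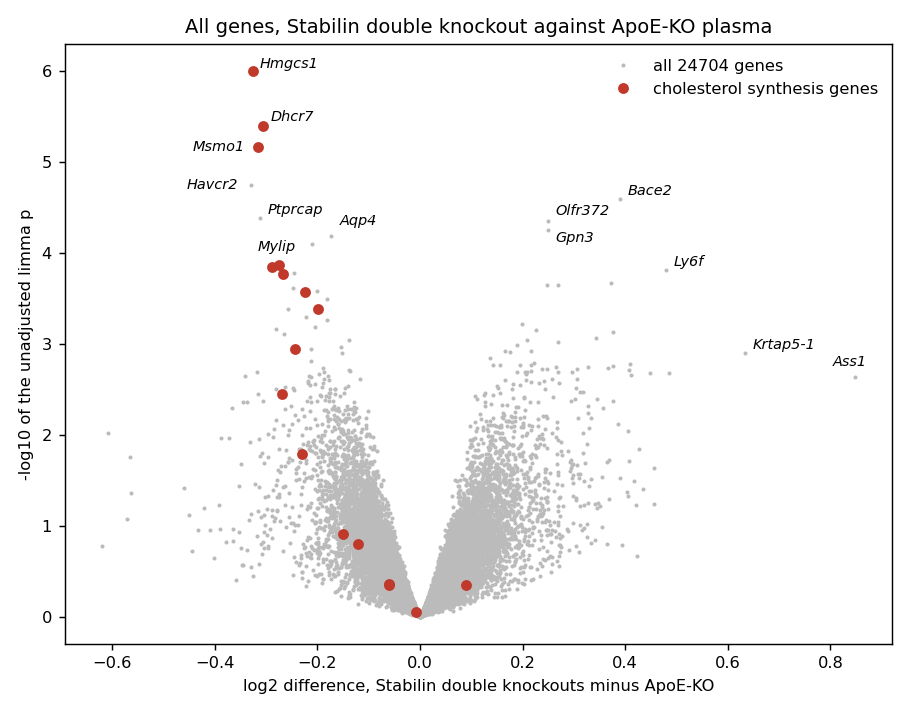
Each point is 1 of 24704 genes, with the log2 difference of Stabilin double knockouts minus ApoE-KO on the x axis and -log10 of the unadjusted limma p on the y axis, and the 17 measured cholesterol synthesis genes in red. Hmgcs1, Dhcr7 and Msmo1 stand at the top on the lower side, and Ass1 has the greatest difference, 0.85, at a modest p.

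Hmgcs1 encodes the cytosolic HMG-CoA synthase that feeds the mevalonate pathway. Its lowest, median and highest log2 values were 9.39, 9.60 and 9.68 in ApoE-Stab1-KO arrays and 9.44, 9.56 and 9.64 in ApoE-Stab2-KO arrays, against 10.06, 9.92, 9.79, 9.88 and 9.82 in the 5 ApoE-KO arrays. All 12 double knockout arrays lay below all 5 ApoE-KO arrays. The difference was -0.33 ± 0.05 (SE), 0.798-fold, with an adjusted p of 0.025, and it was -0.31 for ApoE-Stab1-KO and -0.34 for ApoE-Stab2-KO plasma, which share the ApoE-KO arrays. The call was lost (adjusted p 0.0674) when only the 3 compared groups were fitted, and it held in 9 of 17 fits that each left out 1 array. The arrays whose loss ended it were ApoE-Stab1-KO replicates 4 and 5, ApoE-Stab2-KO replicates 1, 3 and 6, and ApoE-KO replicates 1, 2 and 4, with adjusted p from 0.0505 to 0.179. Such a separation of all 12 arrays below the 5 was seen in 6 genes (0.0243%), and above them in 2 genes (0.0081%). The number that chance would give was not set beside these counts, so a lack of overlap is a description.

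Dhcr7 encodes the reductase of the last step that turns 7-dehydrocholesterol into cholesterol. Its lowest, median and highest values were 7.68, 7.75 and 7.83 in ApoE-Stab1-KO arrays and 7.77, 7.91 and 8.04 in ApoE-Stab2-KO arrays, against 8.22, 8.27, 8.06, 8.21 and 7.93 in ApoE-KO arrays. All ApoE-Stab1-KO arrays lay below every ApoE-KO array, while the ApoE-Stab2-KO arrays overlapped ApoE-KO replicate 5. The difference was -0.31 ± 0.05, and its adjusted p of 0.0499 lay just under the threshold, while it was 0.17 with only the compared groups fitted. With 1 array left out the call held in 3 of 17 fits, those without ApoE-Stab1-KO replicate 3, ApoE-Stab2-KO replicate 5 or ApoE-KO replicate 5, and elsewhere the adjusted p reached 0.309. Dhcr7 differed by 0.15 between ApoE-Stab2-KO and ApoE-Stab1-KO plasma, which did not pass (adjusted p 0.31).

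Msmo1, the methylsterol monooxygenase that removes methyl groups after lanosterol, lay just past the threshold. It had lowest, median and highest values of 9.77, 9.90 and 10.11 in ApoE-Stab1-KO arrays and 9.79, 9.93 and 10.07 in ApoE-Stab2-KO arrays, against 10.40, 10.27, 10.25, 10.18 and 10.08 in ApoE-KO arrays. Of the 12 double knockout arrays, 11 lay below all ApoE-KO arrays. The difference was -0.32 ± 0.05 (adjusted p 0.057). It passed without ApoE-Stab1-KO replicate 3 (adjusted p 0.0158), ApoE-Stab2-KO replicate 2 (0.0469) or ApoE-KO replicate 5 (0.0205). These were 3 of 17 fits with 1 array left out, and elsewhere the adjusted p reached 0.354.

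**Figure D2:**
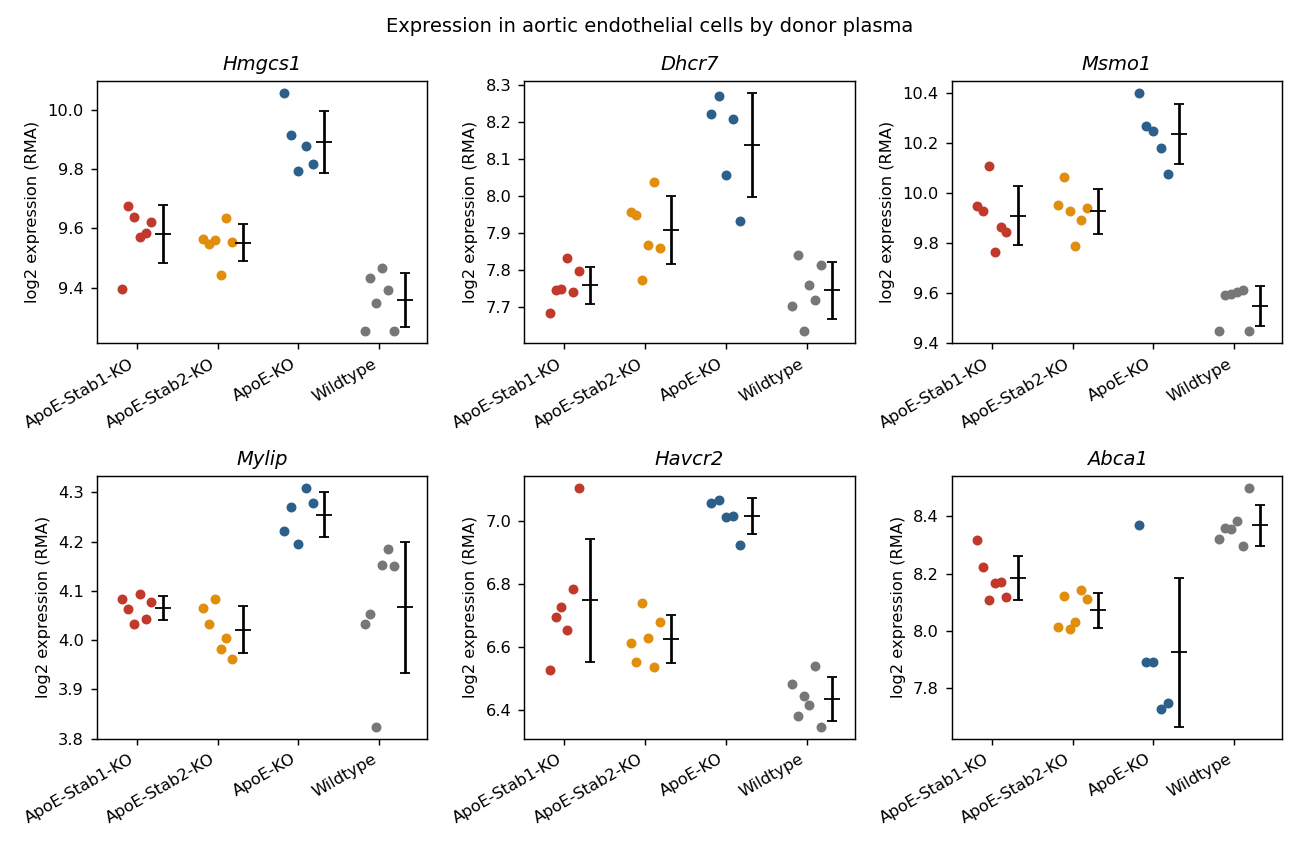
Log2 expression of 6 genes, with 1 point per array and a bar for the mean and SD of each plasma group. Hmgcs1 and Mylip of the double knockout arrays lie wholly below ApoE-KO, Havcr2 has 1 high ApoE-Stab1-KO array at 7.11, and Abca1 has 1 high ApoE-KO array at 8.37.

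Of 20 genes listed for cholesterol synthesis, 17 were measured, and the others were not analysed here. Among the 17, 2 passed as lower, none as higher and 15 did not pass. The median difference was -0.23, against -0.0015 over all genes, with 16 values below 0, and 11 genes had an unadjusted p under 0.05 on the lower side against the 3.02% of all genes. The list was written with earlier results of these data known, so these counts are a description.

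Among the mevalonate steps after Hmgcs1, none passed. Mvk and Pmvk, the kinases of mevalonate and of phosphomevalonate in that order, differed by -0.06 each. Mvd, the decarboxylase that follows them, differed by -0.24 (adjusted p 0.687). Idi1, which isomerises isopentenyl diphosphate, was the single positive value at 0.09 (adjusted p 0.968), and Fdps, which builds farnesyl diphosphate, was at -0.15.

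The squalene steps and those after lanosterol follow. Fdft1 and Sqle, the squalene synthase and squalene epoxidase, differed by -0.27 and -0.20, and 10 of 12 double knockout arrays lay below all ApoE-KO arrays for Sqle. Lss, which closes the ring to lanosterol, had lowest, median and highest values of 7.33, 7.60 and 7.74 in ApoE-Stab1-KO arrays and 7.37, 7.40 and 7.66 in ApoE-Stab2-KO arrays, against 7.95, 7.89, 7.65, 7.77 and 7.70 in ApoE-KO arrays. These groups overlapped, and the difference of -0.29 ± 0.06 did not pass (adjusted p 0.283). Cyp51, the lanosterol demethylase, had 8.07, 8.20 and 8.37 in ApoE-Stab1-KO arrays and 8.22, 8.27 and 8.34 in ApoE-Stab2-KO arrays, against 8.67, 8.55, 8.52, 8.51 and 8.31 in ApoE-KO arrays. The overlap came from ApoE-KO replicate 5, and the difference was -0.28 ± 0.06 (adjusted p 0.283). Nsdhl and Hsd17b7, which act with Msmo1 in removing methyl groups, were at -0.27 (adjusted p 0.283) and -0.23 (adjusted p 0.776). Sc5d, the desaturase before Dhcr7, was at -0.23 with 11 of 12 double knockout arrays below all ApoE-KO arrays (adjusted p 0.32). Tm7sf2 and Ebp, a sterol reductase and a sterol isomerase, were at -0.12 and -0.01.

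The mean over the 17 genes was 7.84 ± 0.05 in ApoE-Stab1-KO arrays (SD, n = 6, range 7.77 to 7.92) and 7.87 ± 0.03 in ApoE-Stab2-KO arrays (n = 6, 7.82 to 7.90), against 8.05 ± 0.07 in ApoE-KO arrays (n = 5, 7.95 to 8.13) and 7.64 ± 0.06 in Wildtype arrays (n = 6, 7.54 to 7.70). No double knockout array reached the lowest ApoE-KO array, and none went down to the highest Wildtype array. Against ApoE-KO the list's median was -0.23 for ApoE-Stab1-KO and -0.22 for ApoE-Stab2-KO plasma, with the ApoE-KO arrays shared. Between the double knockouts, none of the 17 genes passed. Their ApoE-Stab2-KO minus ApoE-Stab1-KO differences ran from -0.13 to 0.34, and the lowest and highest bounds of their 95% intervals were -0.32 and 0.60, so single genes may still differ by up to that much.

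Double knockout plasma gave levels of most of these genes between those of ApoE-KO and Wildtype plasma. The double knockout mean lay below ApoE-KO and above Wildtype in 16 of 17 genes (94.1%), against 22.9% of all genes. In ApoE-KO minus Wildtype the list's median was 0.445, and 11 of its genes passed as higher. The share of all genes covers those with and without such a gap, so both shares are a description. In the double knockouts minus Wildtype, 56 of all genes passed as higher (0.227%) and 33 as lower (0.134%). The cholesterol list held 7 of the higher ones, Hmgcs1 (0.21, adjusted p 0.0487), Sqle (0.25), Lss (0.42), Cyp51 (0.40), Msmo1 (0.37, adjusted p 0.000711), Nsdhl (0.30) and Sc5d (0.23), with a list median of 0.21. Dhcr7 was at 0.09 against Wildtype and did not pass (adjusted p 0.594). Both contrasts use the same double knockout arrays, and the diet of the Wildtype donors was not given.

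**Figure D3:**
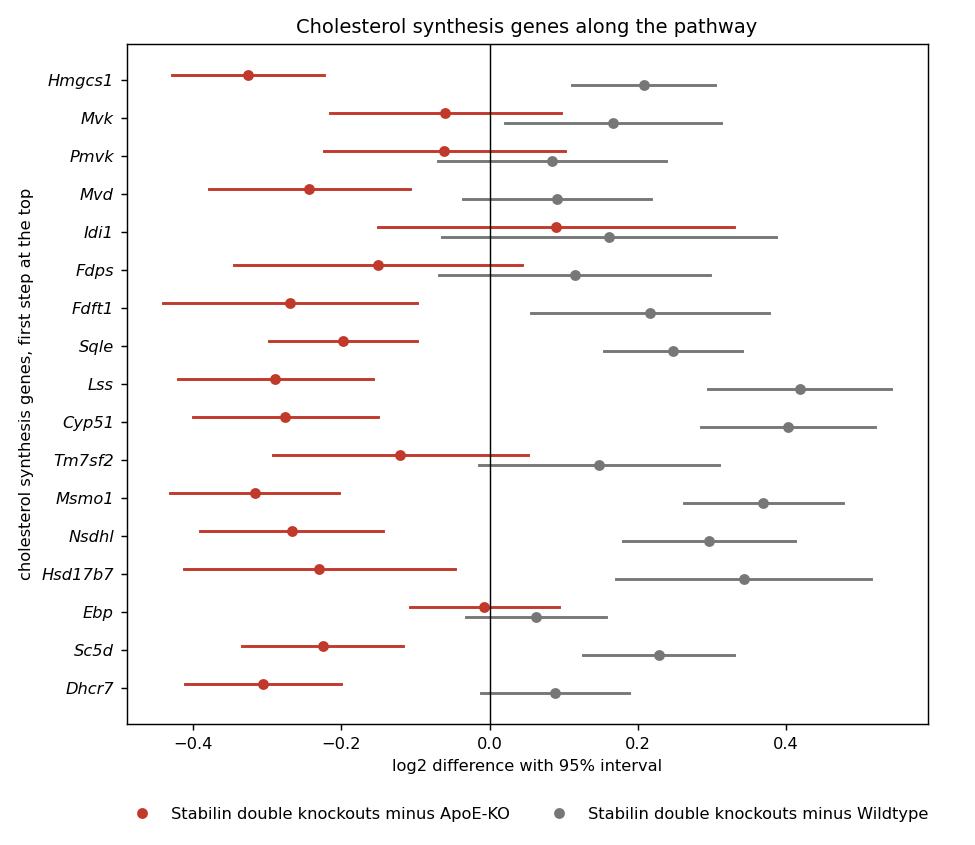
Log2 differences with 95% intervals for the 17 measured cholesterol synthesis genes in pathway order, the double knockouts minus ApoE-KO in red and minus Wildtype in grey. Red points lie left of 0 in 16 genes, with Idi1 the exception at 0.09, and all grey points lie right of 0.

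Genes that control sterol levels were listed apart, and 16 of 20 were measured. None passed, 12 values were below 0, the median was -0.05, and 4 (25% of the list) had an unadjusted p under 0.05, all lower, beside 3.02% of all genes on that side. Srebf2 itself had lowest, median and highest values of 9.61, 9.81 and 9.87 in ApoE-Stab1-KO arrays and 9.71, 9.80 and 9.88 in ApoE-Stab2-KO arrays, against 9.90, 9.89, 9.94, 9.91 and 9.94 in ApoE-KO arrays. The groups did not overlap, yet the gap was narrow, and the difference of -0.12 ± 0.05 did not pass (adjusted p 0.837).

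Insig1, whose protein retains SREBP in the endoplasmic reticulum and whose gene SREBP turns on, was at 9.98, 10.24 and 10.38 in ApoE-Stab1-KO arrays and 10.18, 10.21 and 10.26 in ApoE-Stab2-KO arrays, against 10.55, 10.53, 10.36, 10.50 and 10.34 in ApoE-KO arrays. A single double knockout array reached the ApoE-KO range, and the difference was -0.25 ± 0.05 (adjusted p 0.283). Stard4, a carrier of sterols between membranes, was at -0.18 (adjusted p 0.774). Mylip, the ubiquitin ligase that marks the LDL receptor for degradation and an LXR target, was at 4.03, 4.07 and 4.09 in ApoE-Stab1-KO arrays and 3.96, 4.02 and 4.08 in ApoE-Stab2-KO arrays, against 4.22, 4.27, 4.19, 4.31 and 4.28 in ApoE-KO arrays. Its groups did not overlap at this low level, and the difference of -0.21 ± 0.04 did not pass (adjusted p 0.199).

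Fatty acid synthesis genes had 21 of 21 members measured, with a median of -0.04, none passed, and 15 values below 0. At an unadjusted p under 0.05, 7 were lower and 2 higher, 42.9% of the list together, beside 3.02% of all genes lower and 2.76% higher. Lpin1, a phosphatidate phosphatase of lipid synthesis, had lowest, median and highest values of 7.95, 8.14 and 8.19 in ApoE-Stab1-KO arrays and 8.11, 8.18 and 8.23 in ApoE-Stab2-KO arrays, against 8.36, 8.41, 8.30, 8.29 and 8.28 in ApoE-KO arrays. The groups did not overlap, and the difference was -0.18 ± 0.05 (adjusted p 0.523). Fads2, a fatty acid desaturase, and Elovl6, a fatty acid elongase, were at -0.18 and -0.19, each with an adjusted p of 0.687. Acacb, the acetyl-CoA carboxylase of the mitochondrial surface, was at 0.15 (adjusted p 0.732).

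Cholesterol efflux genes, 14 of 18 measured, had a median of -0.007 and none passed. Abca1, the transporter that loads cholesterol onto apolipoprotein A-I, had lowest, median and highest values of 8.11, 8.17 and 8.32 in ApoE-Stab1-KO arrays and 8.01, 8.07 and 8.14 in ApoE-Stab2-KO arrays, against 8.37, 7.89, 7.89, 7.73 and 7.75 in ApoE-KO arrays. All 12 double knockout arrays lay above ApoE-KO replicates 2 to 5 and below replicate 1. The difference was 0.20 ± 0.07 (adjusted p 0.732) with all arrays and 0.31 (adjusted p 0.0246) without ApoE-KO replicate 1, the array stored with finer decimals, whose part in this was not tested. Abca1 passed in that 1 of 17 fits with an array left out, and elsewhere the adjusted p reached 0.997. In the Wildtype arrays Abca1 ran from 8.29 to 8.50. Abcg1, the transporter that passes cholesterol to HDL, was at 0.18 ± 0.06 (adjusted p 0.726).

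**Figure D4:**
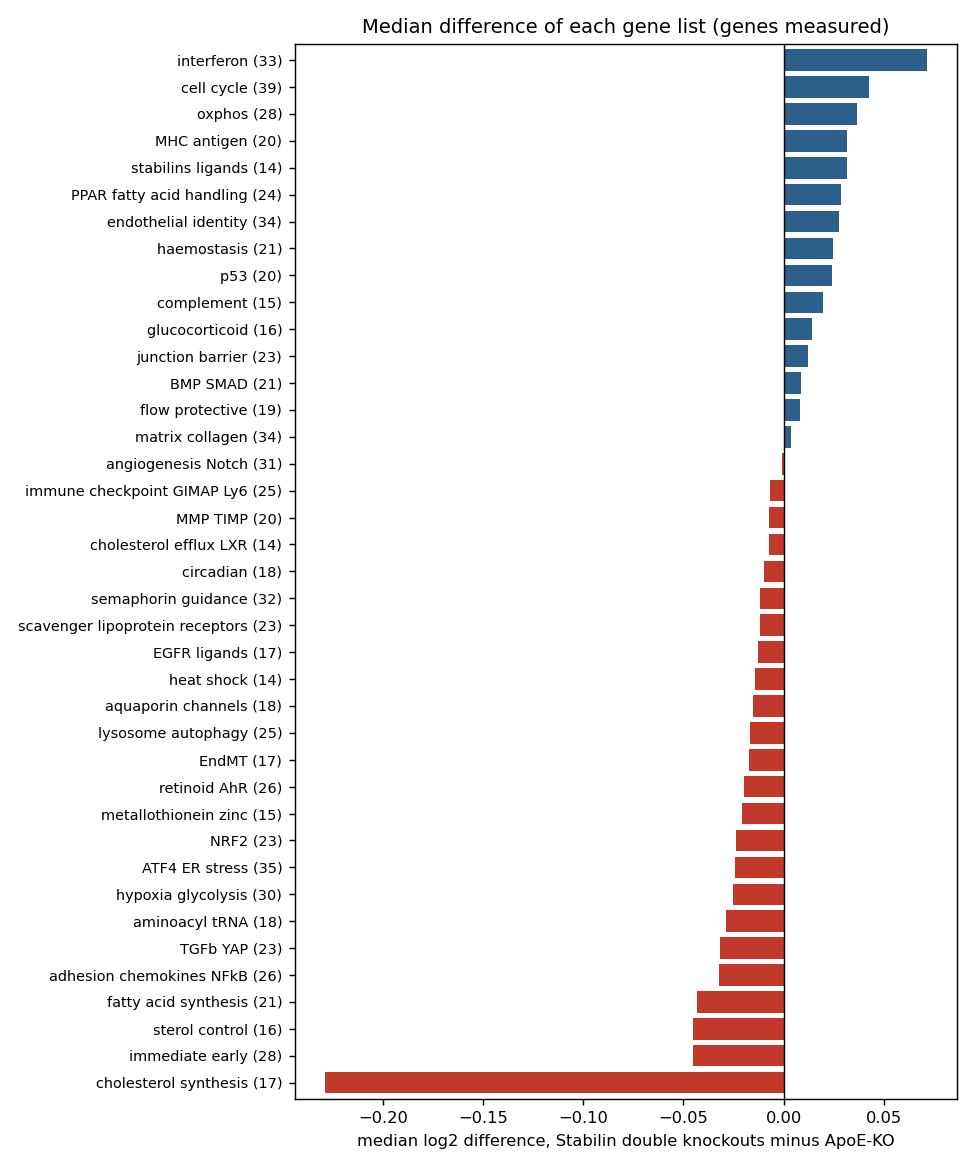
Median log2 difference of the double knockouts minus ApoE-KO in each of 39 gene lists, with the number of genes measured in brackets. Cholesterol synthesis is at -0.23, and the other 38 lists lie between -0.05 and 0.07.

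Outside sterol genes, the rule of smallest p named 6 further genes, none of which passed. Havcr2 encodes TIM-3, an inhibitory receptor of immune cells. Its lowest, median and highest values were 6.53, 6.71 and 7.11 in ApoE-Stab1-KO arrays and 6.54, 6.62 and 6.74 in ApoE-Stab2-KO arrays, against 7.06, 7.07, 7.01, 7.02 and 6.92 in ApoE-KO arrays. ApoE-Stab1-KO replicate 6 lay above all ApoE-KO arrays and the other 11 double knockout arrays below them. The difference was -0.33 ± 0.06 (adjusted p 0.112), and -0.36 without that replicate (adjusted p 0.0011). Havcr2 passed in that 1 of 17 fits with an array left out, and elsewhere the adjusted p reached 0.403. Ptprcap, a partner of the leukocyte phosphatase CD45, was low on the scale at 3.79 to 4.34 in double knockout arrays, against 4.28 to 4.38 in ApoE-KO arrays, a difference of -0.31 ± 0.06 (adjusted p 0.156).

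Bace2, an aspartyl protease related to the Alzheimer protease BACE1, was the gene with the smallest p among those with higher values. It had lowest, median and highest values of 5.92, 6.29 and 6.47 in ApoE-Stab1-KO arrays and 6.16, 6.34 and 6.43 in ApoE-Stab2-KO arrays, against 5.84, 5.76, 5.81, 5.87 and 6.14 in ApoE-KO arrays. ApoE-KO replicate 5 alone made the groups overlap, and the difference was 0.39 ± 0.07 (adjusted p 0.127), or 0.45 without it (adjusted p 0.0273) and 0.42 without ApoE-Stab1-KO replicate 3 (adjusted p 0.0158). Bace2 passed in those 2 of 17 fits with an array left out, and elsewhere the adjusted p reached 0.523. Gpn3, a small GTPase linked to RNA polymerase II assembly, was at 7.38 to 7.78 in double knockout arrays and 7.31 to 7.47 in ApoE-KO arrays (0.25 ± 0.05, adjusted p 0.173), and without ApoE-Stab2-KO replicate 4 the difference was 0.28 (adjusted p 0.00677). That was the 1 passing fit of 17 with an array left out, and elsewhere the adjusted p of Gpn3 reached 0.523. Olfr372, an olfactory receptor gene, was low on the scale at 3.10 to 3.55 in double knockout arrays, against 2.86 to 3.17 in ApoE-KO arrays (0.25, adjusted p 0.156). Aqp4, a water channel, was as low and had no overlap, with 3.37 to 3.56 in double knockout arrays and 3.57 to 3.70 in ApoE-KO arrays (-0.17 ± 0.04, adjusted p 0.178).

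The other genes whose groups did not overlap were chosen after their values were seen. Gjd3, a connexin, was at 4.98 to 5.36 in double knockout arrays and 5.37 to 5.46 in ApoE-KO arrays. Cwc22, a splicing factor, was at 7.49 to 8.07 and Pramel21 at 3.02 to 4.05 in double knockout arrays, against 7.35 to 7.46 and 2.78 to 2.998 in ApoE-KO arrays. Pramel21 was low on the scale, at the 17.7th percentile of all genes. Its highest value came from ApoE-Stab1-KO replicate 5, and the next double knockout value was 3.47. The adjusted p of Gjd3, Cwc22 and Pramel21 lay between 0.687 and 0.75. The 4 genes past 1.5-fold, also picked for their values, varied widely within groups. Ass1, the argininosuccinate synthase that supplies arginine for nitric oxide synthesis, was at 5.20 to 6.60 in ApoE-Stab1-KO and 5.90 to 6.78 in ApoE-Stab2-KO arrays, against 5.86, 4.85, 4.63, 5.27 and 6.14 in ApoE-KO arrays. Its difference of 0.85 ± 0.25 did not pass (adjusted p 0.687), nor did those of Krtap5-1 (0.63), Snora34 (-0.62) and Rpl30-ps8 (-0.61). The Snora34 difference was -0.30 without ApoE-KO replicate 3 and -0.94 without ApoE-KO replicate 5.

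In the endothelial and immune lists no gene passed. Interferon-stimulated genes had the highest median, 0.07 over 33 genes with 28 values above 0. Of these genes, 3 had an unadjusted p under 0.05, all higher, which is 9.09% of the list beside 2.76% of all genes on that side. Ifi35 was at 0.17 ± 0.04, and Usp18, which removes ISG15 from proteins, at 0.29 ± 0.12. Usp18 was at 0.47 for ApoE-Stab1-KO and 0.11 for ApoE-Stab2-KO plasma, which share the ApoE-KO arrays. Its ApoE-Stab2-KO minus ApoE-Stab1-KO difference of -0.36 did not pass (limma adjusted p 0.311). The list medians were 0.09 for ApoE-Stab1-KO and 0.04 for ApoE-Stab2-KO plasma. Between the double knockouts, 10 of the 33 genes had an unadjusted limma p under 0.05, beside 11% of all genes. The list mean ran from 6.27 to 6.55 in ApoE-Stab1-KO and 6.22 to 6.49 in ApoE-Stab2-KO arrays, within or close to the 6.15 to 6.53 of ApoE-KO arrays. Among endothelial identity genes, 34 of 34 measured, 24 values were above 0 with a median of 0.03. At an unadjusted p under 0.05 there were 5 (14.7%), all higher, beside 2.76% of all genes on that side. Vwf, which carries factor VIII and tethers platelets, was at 7.83, 8.46 and 8.62 in ApoE-Stab1-KO arrays and 8.30, 8.52 and 8.75 in ApoE-Stab2-KO arrays, against 8.09, 7.64, 7.85, 8.22 and 8.41 in ApoE-KO arrays. The groups overlapped, with 8 of 12 double knockout arrays above all ApoE-KO arrays, and the difference was 0.41 ± 0.12 (adjusted p 0.687).

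Cell cycle genes, 39 of 40 measured, had a median of 0.04 with 31 values above 0, while 50.9% of all genes lay below 0. None passed, and 6 (15.4%) had an unadjusted p under 0.05, all higher, beside 2.76% of all genes on that side. Cdk1, the mitotic kinase, was at 0.16 and Birc5, a protein of cell division and survival, at 0.21. Adhesion and chemokine genes, 26 of 27 measured, had a median of -0.03, with the monocyte chemokine Ccl2 at -0.32 ± 0.09 (adjusted p 0.687). ER stress and amino acid response genes, 35 of 36 measured, had a median of -0.02, with the cystine transporter Slc7a11 at -0.27 and Ddit4 at 0.16, or 0.0999 without ApoE-KO replicate 3. Flow-protective genes, 19 of 20 measured, had a median of 0.01, with the prostaglandin synthase Ptgds at -0.28 (adjusted p 0.584) and the flow-responsive factor Klf2 at 0.13, or 0.0858 without ApoE-KO replicate 3. In the immune checkpoint, Gimap and Ly6 list, 25 of 26 measured, Ly6f was at 0.48 ± 0.11 (adjusted p 0.283), or 0.58 without ApoE-KO replicate 5 (adjusted p 0.045). Ly6f passed in that 1 of 17 fits with an array left out, and elsewhere the adjusted p reached 0.915. Scavenger and lipoprotein receptors, 23 of 24 measured, had a median of -0.01, and Cd68, a lysosomal scavenger protein, was at -0.15 ± 0.04 (adjusted p 0.687) with 11 of 12 double knockout arrays below all ApoE-KO arrays. Cd68 is also a macrophage marker, of which 7 of 8 were measured, with Ptprc at the 9.48th percentile of all genes and Adgre1 at 21.4. The mean of the macrophage markers ran from 4.69 to 4.75 in ApoE-Stab1-KO and 4.65 to 4.82 in ApoE-Stab2-KO arrays, against 4.69 to 4.78 in ApoE-KO arrays.

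The genes of the knocked-out proteins and of known Stabilin ligands were followed in the cells whatever their values, and none passed. Stab1 was at 0.09 ± 0.05 and Stab2 at -0.10 ± 0.06 in the double knockouts minus ApoE-KO, with adjusted p of 0.86 and 0.905. Apoe was at -0.05, and the ligand genes Tgfbi, Postn and Reln were at -0.01, 0.07 and -0.06. Stab2 was lower in the double knockouts against Wildtype plasma by a log2 difference of -0.39 (adjusted p 0.000877). It was at 8.79 to 9.07 in ApoE-Stab1-KO and 8.81 to 9.14 in ApoE-Stab2-KO arrays, and 9.24 to 9.42 in Wildtype arrays. The ApoE-KO arrays, at 8.88 to 9.25, overlapped the double knockout arrays, so the lower level was not particular to Stabilin double knockout plasma.

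The double knockouts differed from each other in 12 genes (0.0486%), 9 of them higher in ApoE-Stab2-KO than in ApoE-Stab1-KO plasma and 3 lower, and at an unadjusted p under 0.05 in 2712 genes (11%). Of the 12, 9 were not protein-coding, and none was among the 2 genes called against ApoE-KO plasma. Mir1896, a microRNA gene, had the smallest p, and its mature RefSeq sequence (GRCm38.p6, chr13:21445209-21445230, plus strand) is shown with the seed, bases 2 to 8, in capitals.
Mir1896: cUCUCUGAuggugggugaggag
Its probe set had lowest, median and highest values of 4.71, 5.02 and 5.36 in ApoE-Stab2-KO arrays and 3.56, 3.75 and 3.96 in ApoE-Stab1-KO arrays, with 3.63 to 4.79 in ApoE-KO arrays. Wildtype arrays, at 4.335 to 4.97, overlapped the ApoE-Stab2-KO arrays. The ApoE-Stab1-KO values were low on the scale, below the median of all values, 4.31. The difference between the double knockouts was 1.25 ± 0.15 (adjusted p 0.000694). Whether the probe set reports the mature form was not tested. In the mean of both double knockouts minus ApoE-KO, Mir1896 was at 0.32 (adjusted p 0.839).

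Of the 3 protein-coding genes, Ecsit, an assembly factor of mitochondrial complex I, was at 5.70, 5.87 and 6.14 in ApoE-Stab2-KO arrays and 5.17, 5.36 and 5.54 in ApoE-Stab1-KO arrays (0.53 ± 0.08, adjusted p 0.00554). Aph1b, a subunit of gamma-secretase, was at 6.55, 6.79 and 6.92 in ApoE-Stab2-KO arrays and 6.96, 7.07 and 7.19 in ApoE-Stab1-KO arrays (-0.31 ± 0.05, adjusted p 0.012). Cgn, the tight junction protein cingulin, was at 4.53, 4.67 and 4.76 in ApoE-Stab2-KO arrays and 4.81, 5.14 and 5.55 in ApoE-Stab1-KO arrays (-0.52 ± 0.09, adjusted p 0.0269). The Cgn call was lost among protein-coding genes alone (adjusted p 0.0628) and without ApoE-Stab2-KO replicate 2, 3, 4 or 5 (up to 0.0907). The ApoE-KO medians of these 3 genes, at 5.54, 6.86 and 4.75, lay between the medians of the double knockouts. The small nucleolar RNA Snord68 was at 9.49 to 10.03 in ApoE-Stab2-KO and 8.60 to 9.30 in ApoE-Stab1-KO arrays (0.74, adjusted p 0.0168), and its call was lost without ApoE-Stab1-KO replicate 3 (0.68, adjusted p 0.0642).

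**Figure D5:**
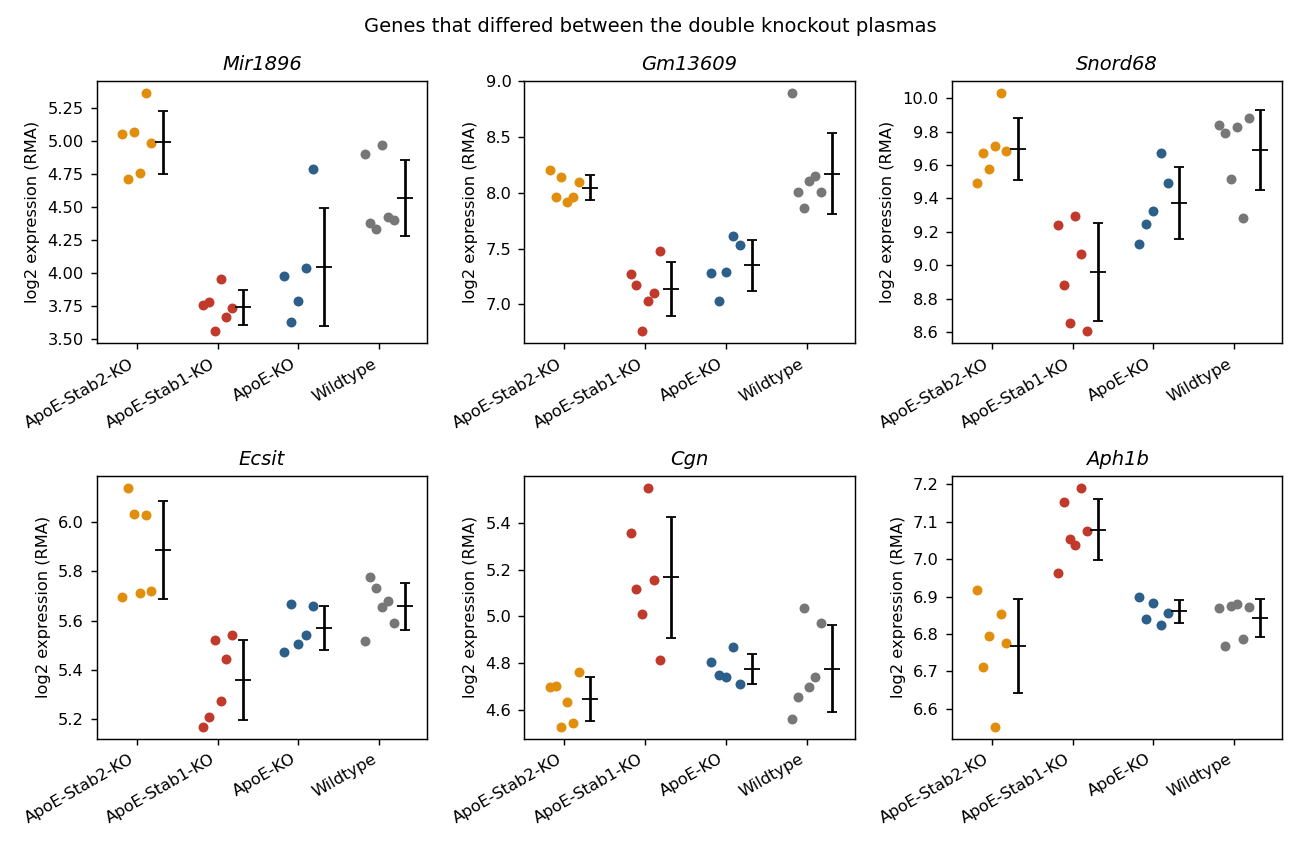
Log2 expression of 6 of the 12 genes that passed between the double knockouts, with 1 point per array and a bar for mean and SD. Mir1896, Gm13609, Snord68 and Ecsit are higher in ApoE-Stab2-KO arrays, and Cgn and Aph1b are higher in ApoE-Stab1-KO arrays.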

How the data were processed

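Biotin-labelled cRNA from total RNA was hybridised to 23 arrays. Per the submitters' processing notes, the authors' deposited values were made with RMA, and their range shows the log2 scale. The RMA version and annotation build were not given in the sources used here. Of 25428 probe sets, 723 had no gene symbol in the platform annotation and were left out. Where 2 probe sets shared a symbol the brighter was kept, leaving 24704 genes with no filter on dim ones. Groups came from the labels' plasma genotypes. limma 3.58.1 in R 4.3.3 fitted 1 mean per group over all 23 arrays (lmFit, eBayes without trend or robust settings, 19 residual and 4.19 prior degrees of freedom). Contrasts were two-sided, with Benjamini-Hochberg adjustment over all genes, called at an adjusted p under 0.05. Errors of differences are standard errors. The fit was tested on simulated data. Alternatives were further normalization, centring, filters, variance settings, array weights, groups fitted, probe sets, a fold minimum and arrays left out in turn, and protein-coding genes only, added after the data had been seen. Promoters and the microRNA came from RefSeq tables. Figures used matplotlib 3.10.9 in Python 3.11.15.

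The genes, the 46 gene lists (935 genes, 880 measured) and the tests were chosen with earlier results of these data known. Named genes were every called gene, the 10 smallest unadjusted p that did not pass, up to 4 members with the smallest p of each list described, Apoe, Stab1, Stab2, Tgfbi, Postn and Reln, and the 5 smallest p between the double knockouts. Gjd3, Cwc22, Pramel21, Ass1, Krtap5-1, Snora34, Rpl30-ps8, and among the genes of the double knockouts Snord68, Cgn and the remaining calls, were named outside that rule, after their values were seen.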

Additional observations from a re-analysis of the deposited data

Results flagged for a closer look

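In 231 groups of values, 1 per gene or list mean and plasma group, 19 held an array far from the others by Dixon's test, where chance flags about 1 in 20. In the ApoE-KO group, Abca1 was at 8.37 in replicate 1 against 7.73 to 7.89 in the others, and Reln at 3.52 in replicate 3 against 3.39 to 3.42. ApoE-KO replicate 5 stood apart for Bace2, at 6.14 against 5.76 to 5.87, and for Cdk1, at 8.87 against 8.57 to 8.61.

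In the ApoE-Stab1-KO group, replicate 3 was low for 4 genes, with Vwf at 7.83 against 8.34 to 8.62, Cldn5 at 10.57 against 10.87 to 11.02, Ddit4 at 9.96 against 10.31 to 10.39 and Ly6f at 6.05 against 6.38 to 6.45. Replicate 1 was at 9.51 for Ecscr, against 9.72 to 9.81, and at 7.65 for Gimap1, against 7.29 to 7.34. Replicate 2 was at 10.98 for Cd68, against 11.11 to 11.14. Replicate 4 was at 7.95 for Lpin1, against 8.11 to 8.19, and at 8.04 for Snora34, against 6.48 to 6.86. Replicate 5 was at 4.05 for Pramel21, against 3.02 to 3.37.

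In the ApoE-Stab2-KO group, replicate 2 was high for the cholesterol synthesis genes Lss, at 7.66 against 7.37 to 7.47, and Sc5d, at 9.50 against 9.35 to 9.40. Replicate 4 was at 7.38 for Gpn3, against 7.68 to 7.78, and at 3.97 for Apoc1, against 3.68 to 3.78. Replicate 3 was at 5.41 for Apoe, against 4.93 to 5.08.

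The response of 12 genes differed between ApoE-Stab2-KO and ApoE-Stab1-KO plasma by limma's test of that difference. Higher in ApoE-Stab2-KO were Mir1896 (1.25), Gm13609 (0.91), Snord68 (0.74), Gm34921 (0.69), Gm16617 (0.68), 2610020C07Rik (0.66), Rpl36-ps3 (0.56), Ecsit (0.53) and Gm4540 (0.35), in log2 units. Lower were Cgn (-0.52), A230072E10Rik (-0.31) and Aph1b (-0.31). Calls of 7 genes, Mir1896, Gm16617, 2610020C07Rik, Gm13609, Ecsit, Aph1b and Rpl36-ps3, held in all 12 fits with 1 double knockout array left out. The Gm34921 and Snord68 calls held in 11 each, both lost without ApoE-Stab1-KO replicate 3 (adjusted p 0.0548 and 0.0642). Gm4540 held in 9 (lost without ApoE-Stab1-KO replicate 3 or ApoE-Stab2-KO replicate 2 or 3, up to 0.0646) and Cgn in 8. A230072E10Rik held in 4, being lost without ApoE-Stab1-KO replicate 2, 3 or 5 or ApoE-Stab2-KO replicate 1, 2, 3, 4 or 5 (up to 0.0901). Its call was also lost with the Wildtype arrays left out of the fit and the ApoE-KO arrays kept (0.107).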

How the results depend on the processing

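The 2 genes called between double knockout and ApoE-KO plasma rest on a narrow margin. The count was 5 with array weights, 3 with trend and robust settings, with genes above the median level and with protein-coding genes only, 1 with arrays centred on their medians, 1 with 1 mean for both double knockouts, 1 with each probe set as its own feature, and 0 with only the compared groups fitted (limma, against 1428 at an unadjusted p under 0.05 with all groups). With the replicate number as a block it was also 0. Labels do not say that equal numbers mark a shared donor or day. Same-numbered arrays had a mean correlation of deviations of 0.0029 over 33 pairs, 1 of them over 0.1, against -0.00064 for other pairs. In the 3 compared groups the mean was 0.019 over 16 same-numbered pairs, against -0.0039 for other pairs. Of 23 arrays, 6 correlated best with their own number, and no chance level was set beside this count. Leaving out 1 of the 17 arrays gave 0 to 6 calls, 0 when the array left out was ApoE-Stab2-KO replicate 1, 3 or 6, replicate 4 or 5 of ApoE-Stab1-KO, or replicate 2 or 4 of ApoE-KO, 1 (Abca1) without ApoE-KO replicate 1, 4 without ApoE-Stab1-KO replicate 3, and 6 without ApoE-KO replicate 5. The cause was not tested. Hmgcs1 remained called in 9 of these 17 fits and Dhcr7 in 3, always with a negative difference. The cholesterol list median ran from -0.30 to -0.19 over arrays left out, the first without ApoE-KO replicate 5. The 12 calls between the double knockouts became 21 with trend and robust settings, 2 among protein-coding genes alone, 9 with the replicate block (8 of them shared, with Rpl36-ps3, Gm4540, Cgn and A230072E10Rik lost), and 8 to 37 with an array left out (37 without ApoE-Stab1-KO replicate 1, 32 without replicate 4, 19 without ApoE-Stab2-KO replicate 6). The 89 calls against Wildtype became 138 among genes above the median level, 54 with a fold of at least 1.2, 60 with the replicate block, and 55 to 111 with an array left out (55 without Wildtype replicate 5). Direction turned for 3 of 76 genes followed, all near 0, Ebp (0.0059 with the replicate block, -0.0405 to 0.0147 with an array left out), Apoe (-0.0888 to 0.000775) and Tgfbi (-0.0573 to 0.0315).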
